A study of Rattus norvegicus with 16 samples.

Results

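The major histocompatibility complex (MHC) class II antigen presentation genes followed here are 10 rat genes: the RT1-D and RT1-B chains (RT1-Da, RT1-Db1, RT1-Ba, RT1-Bb), the peptide editors and their modulator (RT1-DMa, RT1-DMb, RT1-DOb), the invariant chain Cd74, the transactivator Ciita and the protease Ctss. They were taken by symbol from the deposited gene count tables, and all 10 were found in both the postnatal day (PND) 540 table of 24218 entries and the PND21 table of 28688 entries. Class II molecules are surface proteins that carry peptides from endocytosed proteins to CD4 T cells. They are made mainly by dendritic cells, macrophages and B cells, and interferon-gamma can induce them in other cells, epithelium included. An alpha and a beta chain assemble on the invariant chain, cathepsin S trims that chain, and the DM pair exchanges its remnant for a peptide under the control of DO.

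The tissue was the ventral prostate, an androgen-dependent secretory gland, of rats whose mothers had eaten a low protein diet (6% protein) during gestation and lactation (GLLP) or a normal diet (17% protein, CTR). Messenger RNA was profiled from 4 GLLP and 5 CTR offspring at PND540 and from 3 GLLP and 4 CTR offspring at PND21, 16 libraries in all. The labels name no strain, litter or mutation, and do not say which animals shared a dam, so every p-value below measures only the spread between these samples. GLLP libraries at PND21 are numbered 2, 3 and 4, and the other groups are numbered from 1.

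Levels are given as CPM, a gene's counts scaled to the library's total, computed on 1 scale for all 16 libraries over the 19709 gene names that the tables share. Whole gland was sequenced, so fewer cells of a type and less RNA per cell cannot be told apart. The ages were counted into separate tables with different gene sets, so age and table cannot be told apart either. Of the shared genes, 49 had 0 counts in all PND21 libraries but at least 10 counts in every PND540 library, among 11732 with at least 10 counts in every PND540 library. Several RT1 genes are close relatives of each other, and how reads that fit more than 1 of them were counted is not given in the sources used here, so the split of counts among them is uncertain.

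The PND540 libraries held 28748604 to 37587255 counts each and the PND21 libraries 30529776 to 39161666. Prostate epithelium markers summed to 15598 to 72350 CPM in GLLP and 17370 to 79598 CPM in CTR at PND540, and to 27783 to 37383 CPM in GLLP and 43803 to 54512 CPM in CTR at PND21. Scgb1d2 made up most of these sums, at 10547 to 60008 CPM in GLLP and 12814 to 66660 CPM in CTR at PND540. At PND21 it was at 17029 to 24212 CPM in GLLP and 29244 to 37478 CPM in CTR. Epcam, from the same list, is named after its values were seen. It was at 527 to 896 CPM in GLLP and 604 to 890 CPM in CTR at PND540. At PND21 Epcam was at 431 to 549 CPM in GLLP and 454 to 519 CPM in CTR. CTR replicate 5 at PND540 stood apart from the other 8 libraries of its age: 34.6% of 12143 genes lay above all of them and 38.2% below all of them. In that library 5 of the 10 members were above, and 0 below, every other PND540 library. GLLP replicate 4 at PND21 differed from the other PND21 libraries in RT1-Bb, as given below. CTR replicate 1 at PND21 held 0.282% mitochondrial counts, against 3.66% to 5.02% in the other PND21 libraries.

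Class II promoters are known for an X box and a Y box upstream of the start. A complex of RFX, CREB and NF-Y factors binds these boxes, and the CIITA protein is recruited to it. RefSeq promoter sequences of build GRCr8, from 250 bases before to 50 bases after the annotated start, were matched for 8 of the 10 members, RT1-DMb and Ciita being the exceptions. The 80-base windows below are shown because they hold the letters that the members' promoters share. Each is written 5′ to 3′ on the gene's strand, with capitals at the X core (GNNACNNNTG) and the Y core (ATTGG, or CCAAT where it lies on the other strand).
RT1-Da: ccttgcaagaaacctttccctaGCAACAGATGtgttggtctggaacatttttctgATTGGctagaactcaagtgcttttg
RT1-Db1: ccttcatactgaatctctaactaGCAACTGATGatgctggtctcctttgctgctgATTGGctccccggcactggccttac
RT1-Ba: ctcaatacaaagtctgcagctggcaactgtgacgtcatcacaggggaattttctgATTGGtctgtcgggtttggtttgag
RT1-Bb: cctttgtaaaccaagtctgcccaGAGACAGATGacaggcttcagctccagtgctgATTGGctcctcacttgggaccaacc
RT1-DMa: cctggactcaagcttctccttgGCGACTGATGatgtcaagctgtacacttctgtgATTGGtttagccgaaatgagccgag
RT1-DOb: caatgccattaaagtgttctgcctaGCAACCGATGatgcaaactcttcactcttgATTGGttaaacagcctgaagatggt
Cd74: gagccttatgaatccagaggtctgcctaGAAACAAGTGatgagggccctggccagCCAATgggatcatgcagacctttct

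On build GRCr8 the RT1-Da window is chr20:4515311-4515390 on the plus strand, and the RT1-Ba window is chr20:4576959-4577038 on the plus strand. Minus-strand windows are chr20:4560218-4560297 for RT1-Db1, chr20:4604155-4604234 for RT1-Bb, chr20:4712375-4712454 for RT1-DMa and chr20:4627582-4627661 for RT1-DOb. The Cd74 window, chr18:56526962-56527041 on the plus strand, lies farthest from its gene's start. The letters and the spacing were chosen after the promoters had been read, so the counts that follow are descriptions. An X core on the gene's strand followed after 10 to 30 bases by a Y core on either strand was found in 6 of the 8 members' promoters. The same arrangement was in 290 of 33469 rat promoters, or 0.866%. In RT1-DMa and RT1-Da 23 bases separated the cores, in RT1-Db1 and RT1-Bb 22, in RT1-DOb 20 and in Cd74 17. RT1-Ba had a Y core, at -43 to -39 relative to the start, but no match to the X letters on its own strand. A match on the other strand, at -75 to -66, is left in lower case above. The windows are cut at a fixed distance before the Y core, so the Y cores line up as printed. Ctss held only a Y core, after its start. Neither core alone was rare: X letters on either strand were in 39.8% and Y letters in 37.5% of all promoters.

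**Figure D1:**
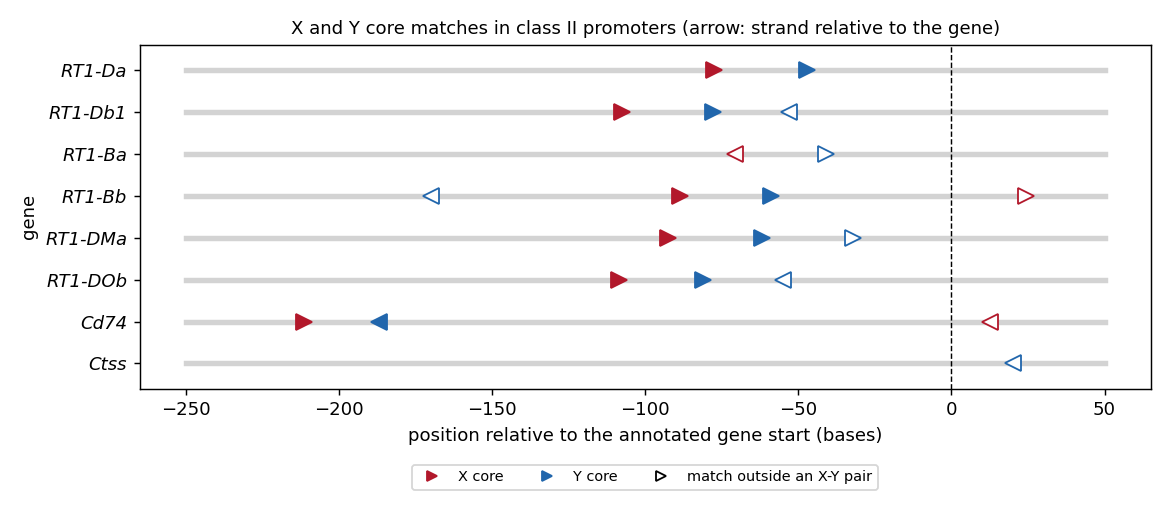
Matches to the X core (red) and Y core (blue) from 250 bases before to 50 bases after the annotated start of 8 class II genes, in bases relative to that start. Arrowheads give the strand relative to the gene, and filled arrowheads are the X and Y cores of the arrangement found in 6 genes, which lie 17 to 23 bases apart.

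The RT1-D chains form the rat counterpart of human HLA-DR. RT1-Da, the alpha chain, was at 41.0, 63.1, 45.0 and 88.0 CPM in GLLP replicates 1 to 4 and at 178, 54.1, 39.0, 112 and 212 CPM in CTR replicates 1 to 5 at PND540. At PND21 it was at 18.7, 20.3 and 21.0 CPM in GLLP and at 13.3, 14.6, 13.2 and 10.1 CPM in CTR. CTR replicates 1, 4 and 5 were above all GLLP libraries at PND540 and CTR replicates 2 and 3 were not, while at PND21 the GLLP libraries were above all CTR libraries. RT1-Db1, the beta chain, was at 16.8, 22.8, 16.6 and 34.6 CPM in GLLP and at 101, 18.9, 19.9, 39.0 and 74.9 CPM in CTR at PND540. Its PND21 values were 17.3, 23.4 and 28.2 CPM in GLLP and 13.1, 17.6, 14.4 and 11.0 CPM in CTR. The diets overlapped at both ages for this chain, at PND21 because CTR replicate 2 was just above GLLP replicate 2.

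The RT1-B chains form the counterpart of HLA-DQ. RT1-Ba, the alpha chain, was at 13.7, 27.4, 20.2 and 42.5 CPM in GLLP and at 56.4, 21.7, 13.3, 49.5 and 78.7 CPM in CTR at PND540. At PND21 it was at 17.2, 21.1 and 23.5 CPM in GLLP and at 11.8, 15.0, 11.6 and 9.77 CPM in CTR. The diets overlapped at PND540 and did not at PND21. RT1-Bb, the beta chain, was at 27.1, 60.2, 46.2 and 96.3 CPM in GLLP and at 123, 50.5, 28.0, 98.1 and 261 CPM in CTR at PND540. In PND21 libraries it was at 21.7, 23.2 and 129 CPM in GLLP and at 12.0, 18.5, 19.0 and 10.0 CPM in CTR. The value of 129 CPM belongs to GLLP replicate 4 and was several times that of every other PND21 library.

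Cd74 encodes the invariant chain, the chaperone that fills the peptide groove until the class II dimer reaches the endosome. It was at 157, 228, 179 and 355 CPM in GLLP and at 673, 190.0, 143, 419 and 1528 CPM in CTR at PND540. The PND21 values were 50.1, 59.3 and 69.9 CPM in GLLP and 43.9, 47.7, 43.8 and 36.7 CPM in CTR. CTR replicate 5 held the PND540 maximum, and all GLLP libraries were above all CTR libraries at PND21. Ctss, cathepsin S, the protease that trims the invariant chain, was at 38.6, 40.3, 21.9 and 48.8 CPM in GLLP and at 50.5, 27.7, 28.6, 83.3 and 75.9 CPM in CTR at PND540. At PND21 it was at 7.56, 10.3 and 7.91 CPM in GLLP and at 8.22, 8.22, 9.24 and 5.62 CPM in CTR. Every PND540 library was above every PND21 library for both genes.

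Ciita encodes the coactivator without which most class II transcription fails. It was at 2.68, 3.11, 1.55 and 5.76 CPM in GLLP and at 6.58, 3.08, 1.74, 5.62 and 2.93 CPM in CTR at PND540. Its PND21 values were 1.79, 2.33 and 2.07 CPM in GLLP and 1.93, 1.42, 1.17 and 1.03 CPM in CTR. CTR replicate 5, the highest PND540 library for RT1-Da, RT1-Ba, RT1-Bb, RT1-DMa and Cd74, was second lowest of its group for Ciita.

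RT1-DMa and RT1-DMb encode the chains of DM, which exchanges the invariant chain remnant for a peptide. RT1-DMa was at 1.58, 0.501, 0.295 and 0.711 CPM in GLLP and at 2.22, 0.503, 1.43, 1.14 and 2.97 CPM in CTR at PND540, from 8 to 76 counts per library. It had 0 counts in all 7 PND21 libraries. RT1-DMb was at 0.696, 1.14, 0.259 and 2.78 CPM in GLLP and at 2.09, 0.871, 0.613, 0.468 and 1.41 CPM in CTR at PND540, and had 1 count in all at PND21, in CTR replicate 4. For both genes the diets overlapped at PND540, and neither was above the floor of 3 counts in any PND21 library. RT1-DOb, the beta chain of DO, was at 0.403, 0.393, 0.517 and 1.32 CPM in GLLP and at 1.42, 0.570, 0.375, 1.32 and 0.508 CPM in CTR at PND540. In PND21 libraries RT1-DOb was at 0.394, 0.570 and 0.606 CPM in GLLP and at 0.674, 0.630, 0.469 and 0.266 CPM in CTR. RT1-DOb overlapped between the diets at each age and between the ages in each diet.

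**Figure D2:**
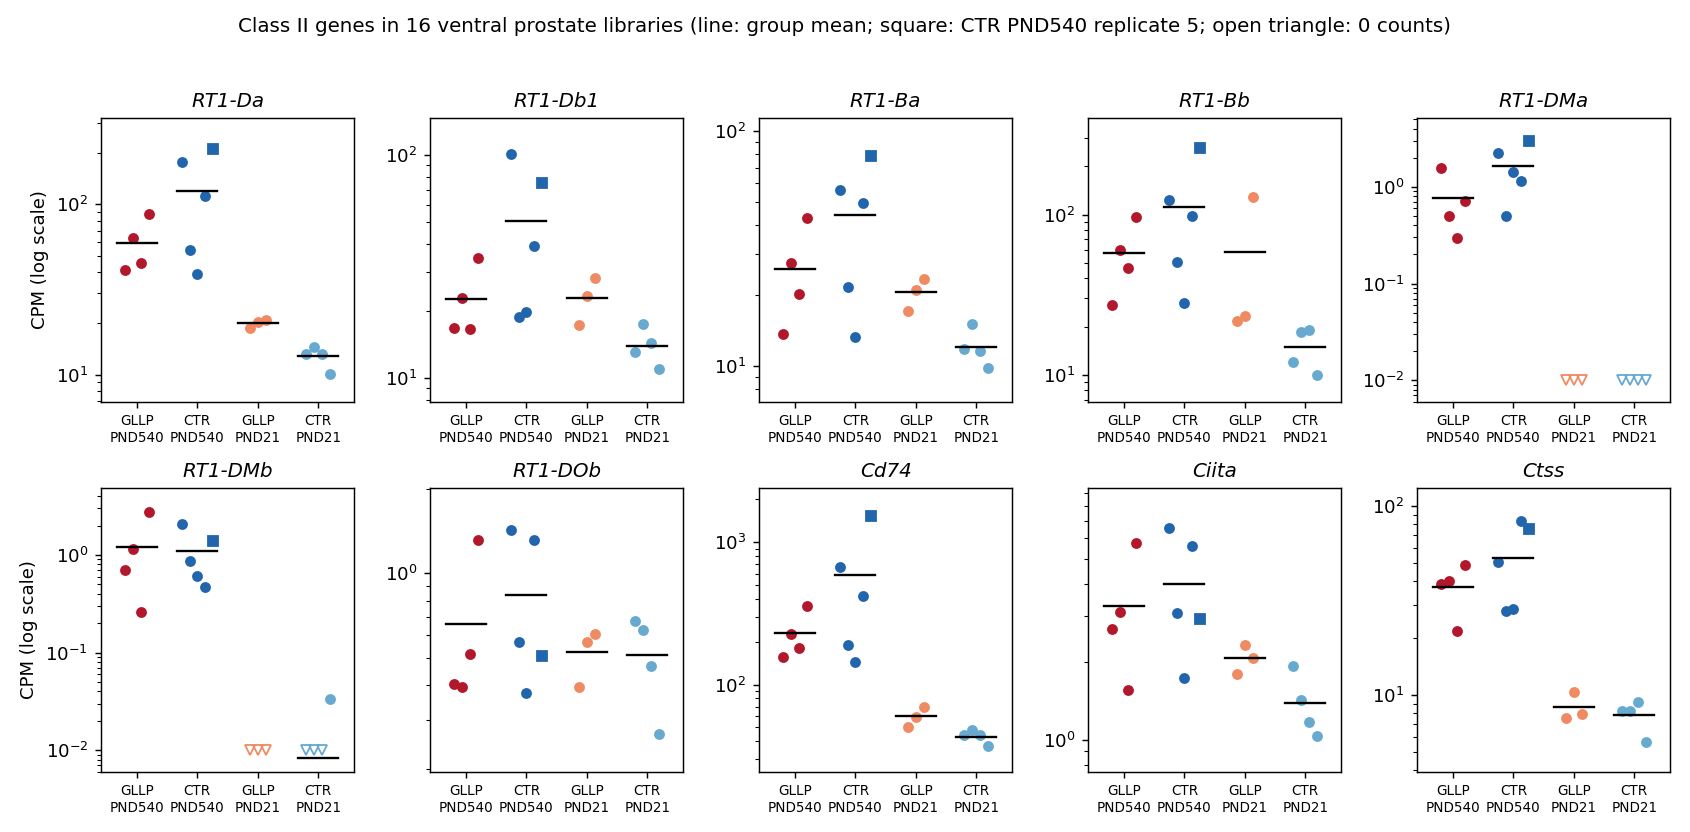
CPM of the 10 class II genes in each of the 16 libraries, on a log scale that differs between panels, with lines at the group means. Squares mark CTR replicate 5 at PND540 and open triangles mark libraries with 0 counts. RT1-DMa and RT1-DMb have values in PND540 libraries and, but for 1 count, none at PND21, and RT1-Bb in GLLP replicate 4 at PND21 lies at 129 CPM.

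At PND540 the class II genes averaged lower in GLLP than in CTR glands for all members but RT1-DMb, yet 0 of 10 passed the test. Cd74 averaged 229.9 ± 88.7 CPM in GLLP (SD, n = 4) and 590.5 ± 565 CPM in CTR (SD, n = 5). Its log2 fold change of -1.39 (SE 0.66) had an edgeR quasi-likelihood p of 0.914 after Benjamini-Hochberg adjustment. RT1-Da averaged 59.3 ± 21.4 CPM in GLLP and 119 ± 75.5 CPM in CTR, and RT1-Db1 averaged 22.7 ± 8.41 CPM in GLLP and 50.7 ± 36.0 CPM in CTR (SD, n = 4 and 5). The diets overlapped for all 10 members, while 0.183% of all genes had GLLP libraries that all exceeded the CTR libraries and 0.210% had the reverse. Over all 14767 genes edgeR called 0% (0 genes), and 123 genes (0.833%) had an unadjusted p under 0.05, among them 1 member, RT1-Db1. DESeq2 called 2 genes and limma voom with sample weights called 0, none of them a member. The members' log2 fold changes ran from -1.39 for Cd74 to 0.15 for RT1-DMb, with 9 of 10 negative and a median of -0.89, beside 7390 of 14767 negative and a median of -0.00030 over all genes tested. With limma voom with sample weights the median over the 8 members with counts at both ages was -0.21, against -0.89 for the same 8 by edgeR.

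Much of that difference stood on the library set apart. Without CTR replicate 5, Cd74 averaged 356 ± 243 CPM in CTR (SD, n = 4), its log2 fold change was -0.63 (SE 0.48), and the members' median was -0.46. RT1-Db1 kept most of its value, with a log2 fold change of -0.98 (SE 0.53) without that library, against -1.18 (SE 0.53) with it. RT1-DMa, at -1.11 (SE 0.63) with all libraries, was at -0.77 (SE 0.61) without it. None of the 10 was called without CTR replicate 5 either, by edgeR, with an adjusted p of 1.00 for each.

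At PND21 the members ran the other way, higher on average in GLLP for the 8 that could be tested, and 0 of these 8 were called by edgeR. RT1-Da averaged 20.02 ± 1.20 CPM in GLLP (SD, n = 3) and 12.8 ± 1.89 CPM in CTR (SD, n = 4), a 1.57-fold difference, with a log2 fold change of 0.65 (SE 0.14) and an edgeR adjusted p of 0.0710. RT1-Ba averaged 20.6 ± 3.20 CPM in GLLP and 12.0 ± 2.19 CPM in CTR, with a log2 fold change of 0.78 (SE 0.17) and the same edgeR adjusted p. Cd74 averaged 59.7 ± 9.92 CPM in GLLP and 43.0 ± 4.61 CPM in CTR, with a log2 fold change of 0.48 (SE 0.13, edgeR adjusted p = 0.115). RT1-Db1 had a log2 fold change of 0.72 (SE 0.20, edgeR adjusted p = 0.116) and Ciita one of 0.58 (SE 0.27, edgeR adjusted p = 0.271). Ctss stood at 0.14 (SE 0.20) and RT1-DOb at 0.05 (SE 0.40). RT1-DMa and RT1-DMb were not tested at this age. Without CTR replicate 1, the library low in mitochondrial counts, edgeR gave RT1-Da 0.68 (adjusted p = 0.183), RT1-Ba 0.77 (adjusted p = 0.194) and Ciita 0.79 (adjusted p = 0.262). Without GLLP replicate 4 it gave RT1-Da 0.61 (adjusted p = 0.109), Cd74 0.35 (adjusted p = 0.185) and RT1-Db1 0.54 (adjusted p = 0.203).

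Of all 14915 genes tested at PND21, edgeR called 1.11%, and 1.01% as higher in GLLP. The members' median log2 fold change was 0.61, beside -0.0038 over all genes, and 7381 of all genes had a positive value. An unadjusted p under 0.05 was reached by 5 of the 8 members, RT1-Da, RT1-Db1, RT1-Ba, RT1-Bb and Cd74, and by 19.3% of all genes. In RT1-Da, RT1-Ba, RT1-Bb and Cd74 every GLLP library was above every CTR library, a pattern that 9.49% of all genes showed in that direction. The count of calls depended on the tool: DESeq2 called 4 members, RT1-Da, RT1-Db1, RT1-Ba and Cd74, among 972 genes. Limma voom with sample weights called these 4 and Ciita, among 3490 genes. Without GLLP replicate 2 edgeR called the same 4 members, among 1509 of 15147 genes.

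RT1-Bb had the members' highest log2 fold change at PND21, 1.97 (SE 0.67, edgeR adjusted p = 0.188), and 1 library decided its size. Without GLLP replicate 4 it was 0.59 (SE 0.25, edgeR adjusted p = 0.274), close to that of the other chains. In that library RT1-Ba was 0.182 of RT1-Bb by counts, against 0.790 and 0.907 in the other GLLP libraries and 0.608 to 0.987 in CTR. Its Ptprc, the pan-leukocyte marker CD45, was at 3.92 CPM, the lowest of the PND21 libraries.

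**Figure D3:**
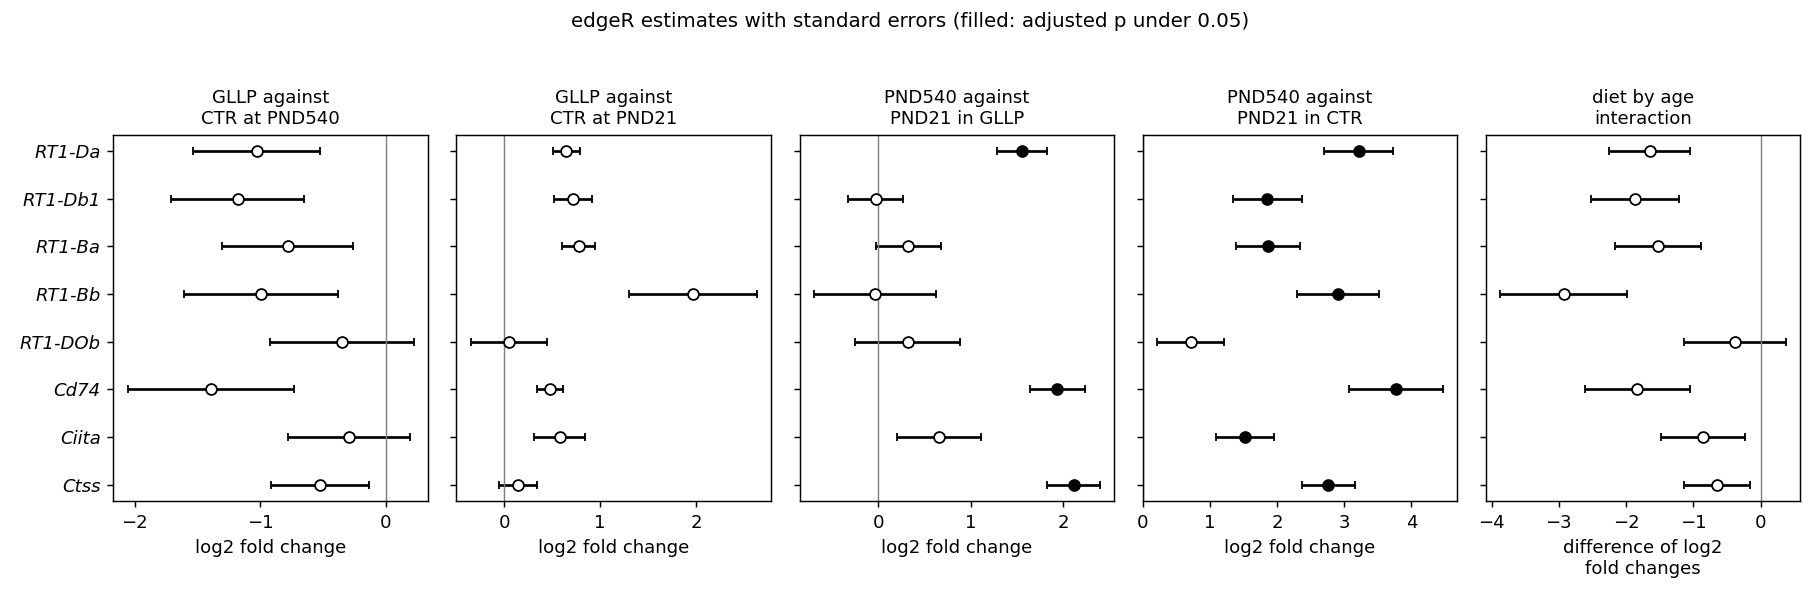
Log2 fold changes from edgeR with standard errors for the 8 members with counts at both ages, in 5 comparisons, with filled points at an adjusted p under 0.05. GLLP values lie below 0 at PND540 and above 0 at PND21 without a filled point, and 3 genes in GLLP and 7 in CTR are filled for PND540 against PND21. RT1-DMa and RT1-DMb are left out because they had almost no counts at PND21.

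Between the ages, class II genes rose in CTR glands. Of the 8 members with counts at both ages, 7 were called higher at PND540, all but RT1-DOb, where edgeR called 17.3% of 13510 genes higher and 30.5% in either direction. Cd74 averaged 590.5 ± 565 CPM at PND540 (SD, n = 5) and 43.0 ± 4.61 CPM at PND21 (SD, n = 4), a log2 fold change of 3.78 (SE 0.70, edgeR adjusted p = 0.00269). RT1-Da rose by 3.22 on the log2 scale (SE 0.51, edgeR adjusted p = 0.00119) and RT1-Bb by 2.91 (SE 0.61, edgeR adjusted p = 0.00535). Ctss averaged 53.2 ± 25.9 CPM at PND540 and 7.82 ± 1.55 CPM at PND21, with a log2 fold change of 2.77 (SE 0.39, edgeR adjusted p = 0.000613). RT1-Ba (1.86, SE 0.48), RT1-Db1 (1.85, SE 0.51) and Ciita (1.52, SE 0.43) rose less on the log2 scale, with edgeR adjusted p-values of 0.0148, 0.0213 and 0.0226 in that order. RT1-DOb, at 0.71 (SE 0.50, edgeR adjusted p = 0.312), was not called.

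Without CTR replicate 5 at PND540, edgeR called the same 7 genes, with Cd74 at 3.04 (SE 0.45) and a median over the 8 genes of 1.99 in place of 2.32. RT1-Db1 and Ciita lost their calls when some other libraries were left out, though their log2 fold changes moved little. RT1-Db1 was at 1.82, 1.86 and 1.75 without CTR replicate 1, 3 or 4 at PND21, with edgeR adjusted p-values of 0.0613, 0.0569 and 0.0675. Ciita was at 1.53, 1.44 and 1.40 without CTR replicate 2, 3 or 4 at PND21 and at 1.34 without replicate 4 at PND540, with edgeR adjusted p-values of 0.0542 to 0.0740. Limma voom with sample weights also left RT1-Db1 (adjusted p = 0.0518) and RT1-Ba (adjusted p = 0.0521) uncalled. In RT1-Da, RT1-Db1, RT1-Bb, Cd74 and Ctss every PND540 CTR library was above every PND21 one, as in 18.8% of all genes tested.

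In GLLP glands 3 of the 8 members with counts at both ages were called higher at PND540, Cd74, RT1-Da and Ctss, where edgeR called 19.1% of 13694 genes higher and 36.2% in either direction. Cd74 averaged 229.9 ± 88.7 CPM at PND540 (SD, n = 4) and 59.7 ± 9.92 CPM at PND21 (SD, n = 3), a log2 fold change of 1.93 (SE 0.30, edgeR adjusted p = 0.00121). RT1-Da rose by 1.56 (SE 0.27, edgeR adjusted p = 0.00220) and Ctss by 2.11 (SE 0.29, edgeR adjusted p = 0.000596) on the log2 scale. These 3 genes were also those whose GLLP libraries did not overlap between the ages, as 22.5% of all genes did in that direction. RT1-Db1 had a log2 fold change of -0.03 (SE 0.30), RT1-Ba of 0.33 (SE 0.35), Ciita of 0.66 (SE 0.46) and RT1-DOb of 0.32 (SE 0.57), none of them called. RT1-Bb stood at -0.04 (SE 0.66) with all libraries and at 1.35 (SE 0.46, edgeR adjusted p = 0.0656) without GLLP replicate 4 at PND21.

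RT1-DMa and RT1-DMb entered the age comparisons only through their PND540 counts and had to differ, so they are set apart from the counts of calls above. Against a floor of 3 counts per library at PND21, RT1-DMa was at least 8.23-fold higher at PND540 in GLLP and at least 16.9-fold higher in CTR. RT1-DMb was at least 13.02-fold higher at PND540 in GLLP. In CTR the 146 RT1-DMb counts at PND540 and the 1 count at PND21 gave a ratio of 126 (95% exact counting interval 22.2 to 4993, which covers counting error only). Among the 49 genes with 0 counts at PND21 was Rpl10a, a ribosomal protein gene that every cell uses and that is named after its values were seen, with 340.1 to 945 CPM at PND540 and 0 counts in every PND21 library. The 1 count of RT1-DMb shows that the PND21 counting could assign a read to that gene, though how fully was not tested. Whether it could assign reads to RT1-DMa was not tested, so the bounds above are of counts and not of expression.

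The difference between the diets at PND540 was set against that at PND21 in 1 fit of all 16 libraries, which asks whether the diet effect depends on age. RT1-DMa and RT1-DMb, with 0 and 1 count at PND21, gave no usable estimate. The difference was negative for all 8 members with counts at both ages, beside 7379 of 14178 genes, and 0 of these 8 were called by edgeR, which called 0.0917% of 14178 genes and gave 5.17% of them an unadjusted p under 0.05. RT1-Bb had an estimate of -2.93 (SE 0.95) on the log2 scale, and of -1.56 (SE 0.83) without GLLP replicate 4 at PND21. RT1-Db1 had -1.87 (SE 0.65), Cd74 -1.83 (SE 0.78), RT1-Da -1.65 (SE 0.60) and RT1-Ba -1.53 (SE 0.64). These 5 had an unadjusted p under 0.05, and each had an edgeR adjusted p of 0.738. DESeq2 and limma voom, which called 46 and 44 genes, called 0 members. The calls in CTR but not in GLLP glands, for RT1-Db1, RT1-Ba, RT1-Bb and Ciita, are therefore not shown to differ between the diets. Without CTR replicate 5 at PND540, Cd74 was at -1.13 (SE 0.56) and the median over the 8 genes with counts at both ages was -1.18 in place of -1.59. That median was -0.79 with limma voom with sample weights.

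Some ratios between class II genes separated the ages. The ratio of RT1-Da to RT1-Db1 counts, alpha to beta chain, was 2.44 to 2.77 in GLLP and 1.77 to 2.87 in CTR at PND540, and 0.747 to 1.08 in GLLP and 0.828 to 1.01 in CTR at PND21. RT1-Da to RT1-Ba behaved alike, at 2.07 to 2.99 in GLLP and 2.26 to 3.16 in CTR at PND540, and 0.896 to 1.09 in GLLP and 0.969 to 1.14 in CTR at PND21. For both ratios all PND540 libraries were above all PND21 libraries and the diets overlapped at each age. These are ratios of counts, not of transcripts per length, and the tables' gene models may differ, so they say nothing of chain stoichiometry. Cd74 to RT1-Da was 3.61 to 4.04 in GLLP and 3.51 to 7.22 in CTR at PND540, where 7.22 was CTR replicate 5, and 2.68 to 3.32 in GLLP and 3.28 to 3.63 in CTR at PND21. Other pairs varied more within a group. RT1-Ba to RT1-Bb was 0.438 to 0.506 in GLLP and 0.302 to 0.505 in CTR at PND540, and 0.182 to 0.907 in GLLP and 0.608 to 0.987 in CTR at PND21. Cd74 to Ciita was 58.6 to 116 in GLLP and 61.6 to 521 in CTR at PND540, and 25.4 to 33.7 in GLLP and 22.8 to 37.4 in CTR at PND21. Cd74 to Ctss overlapped between the ages, at 4.06 to 8.21 in GLLP and 5.00 to 20.1 in CTR at PND540, and 5.75 to 8.83 in GLLP and 4.75 to 6.53 in CTR at PND21. CTR replicate 5 at PND540 held the values of 0.302, 521 and 20.1, and GLLP replicate 4 at PND21 that of 0.182.

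Across libraries of an age the members rose and sank together, as a description over 9 libraries at PND540 and 7 at PND21. Pearson's r of log2 CPM with the mean of the other 7 members with counts at both ages was 0.980 for RT1-Da, 0.973 for RT1-Ba, 0.926 for RT1-Bb, 0.923 for RT1-Db1 and 0.914 for Cd74 at PND540. Ciita, at 0.711, and RT1-DOb, at 0.641, were the loosest, and without CTR replicate 5 they were at 0.923 and 0.920. Ctss was at 0.755 without that library, against 0.815 with it. At PND21 the values were 0.992 for Cd74 and 0.969 for RT1-Db1, and 0.521 for Ctss and 0.561 for RT1-DOb were the lowest.

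Spread of Cd74 within a group was wider at PND540 than at PND21 on the log2 scale, with CTR replicate 5 among the PND540 libraries. The SD of log2 CPM of Cd74 over the CTR libraries was 1.38, above that of 92.9% of the 12156 genes with a mean of at least 1 CPM there, whose median SD was 0.57. In GLLP it was 0.52 for Cd74, above that of 75.8% of 12108 genes, whose median SD was 0.29. At PND21 the SD of Cd74 was 0.24 in GLLP, above that of 56.8% of 12213 genes, and 0.16 in CTR, above that of 59.6% of 12003 genes. The SD of RT1-Da over the GLLP libraries at PND21 was 0.09, above that of only 14.2% of 12213 genes, while that of RT1-Bb was 1.46, above that of 99.6%. Over the CTR libraries at PND21 the SD of RT1-Da was 0.23, above that of 75.6% of 12003 genes. There RT1-Bb was at 0.46, above 94.9%, and Ciita at 0.37, above 91.1%.

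**Figure D4:**
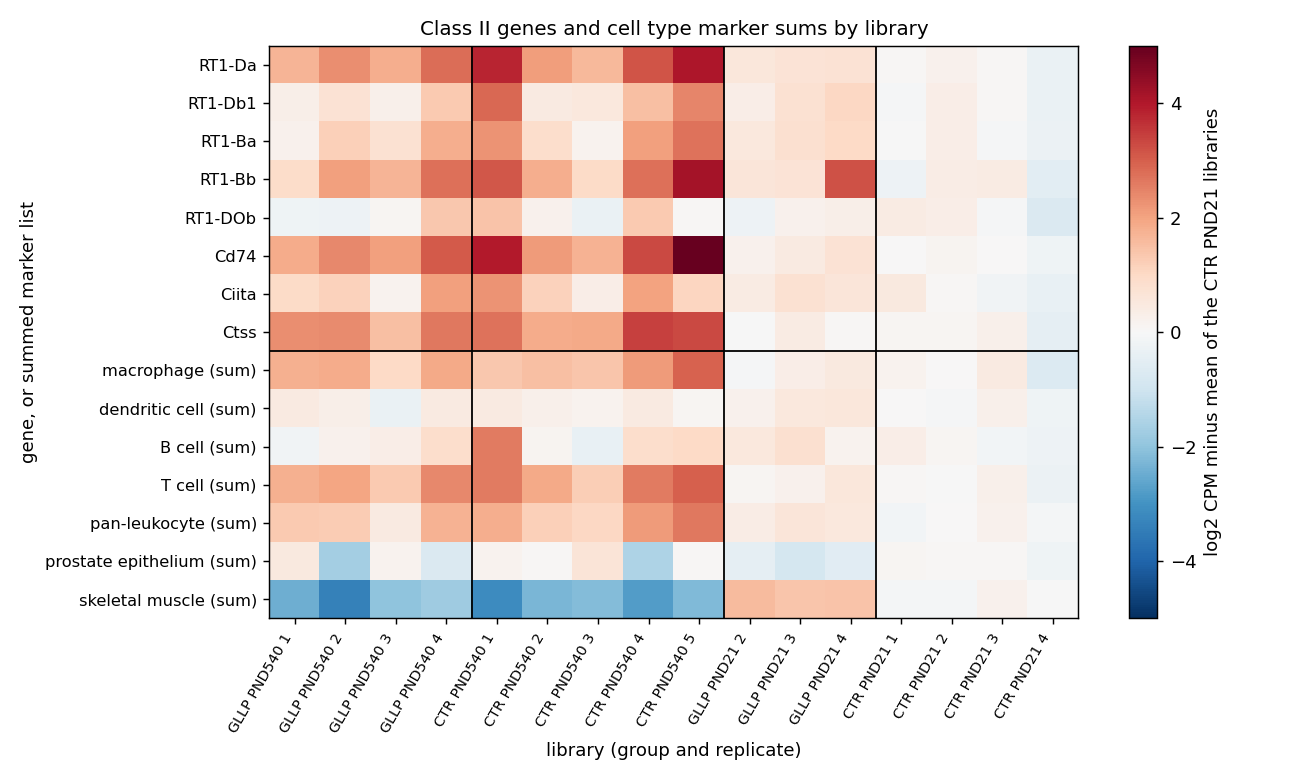
Log2 CPM of 8 class II genes and of the summed CPM of cell type marker lists in each library, less the mean of the CTR PND21 libraries, so that red is above and blue below that mean. Cd74, Ctss, RT1-Da and the macrophage and T cell sums are higher in every PND540 library than in any PND21 library. The other members shown overlap between the ages, and the skeletal muscle sum is highest in the GLLP PND21 libraries.

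Some macrophage and pan-leukocyte markers were also higher at PND540. Macrophage markers (13 genes in both tables) summed to 595 to 1087 CPM in GLLP and 756 to 2259 CPM in CTR at PND540, and to 283 to 417 CPM in GLLP and 185 to 406 CPM in CTR at PND21. Cd14 was the largest part of these sums, at 546 ± 152 CPM in GLLP (SD, n = 4) and 648 ± 436 CPM in CTR (SD, n = 5) at PND540. At PND21 Cd14 was at 140 ± 41.8 CPM in GLLP (SD, n = 3) and 136 ± 58.0 CPM in CTR (SD, n = 4). Between the ages, 6 of 13 were called higher in GLLP, beside 19.1% of all genes, and 9 of 13 in CTR, beside 17.3% of all genes. Cd14, an endotoxin co-receptor, had a log2 fold change of 1.95 in GLLP and 2.26 in CTR, and Lyz2, a lysozyme, had one of 2.83 in GLLP and 2.88 in CTR, all 4 called by edgeR. Other macrophage genes ran the other way, and these are named after their values were seen. Mrc1, the mannose receptor, had a log2 fold change of -1.66 in GLLP (SE 0.60, edgeR adjusted p = 0.0580, not called) and of -2.05 in CTR (SE 0.56, edgeR adjusted p = 0.0198), where it was the 1 macrophage gene called lower. Cd163, a haemoglobin scavenger receptor, was at -0.74 in GLLP and -1.17 in CTR, not called in either. Pan-leukocyte genes summed to 36.8 to 91.0 CPM in GLLP and 55.4 to 169 CPM in CTR at PND540, and to 34.9 to 41.8 CPM in GLLP and 24.4 to 31.3 CPM in CTR at PND21. Of these 5 genes, 2 were called higher with age in GLLP and 3 in CTR, beside the same 19.1% and 17.3% of all genes. Their part in the members' differences was not tested.

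T cell markers (10 genes) summed to 37.0 to 79.8 CPM in GLLP and 35.3 to 117 CPM in CTR at PND540, and to 16.1 to 21.9 CPM in GLLP and 12.3 to 17.6 CPM in CTR at PND21. Cd4, the co-receptor that binds class II and that rat macrophages also carry, rose with age by 2.09 in GLLP and 2.82 in CTR on the log2 scale, both called by edgeR. Cd4 made up most of that sum, with 45.9 ± 14.2 CPM in GLLP (SD, n = 4) and 62.2 ± 27.3 CPM in CTR (SD, n = 5) at PND540, and 10.7 ± 0.866 CPM in GLLP (SD, n = 3) and 8.82 ± 2.03 CPM in CTR (SD, n = 4) at PND21. Of the T cell markers tested with age, edgeR called 2 of 7 higher in GLLP, beside 19.1% of all genes, and 6 of 8 in CTR, beside 17.3%. Cd3e, a chain of the T cell receptor complex, rose by 1.89 in GLLP (SE 0.58, edgeR adjusted p = 0.0316) and by 3.12 in CTR (SE 0.58, edgeR adjusted p = 0.00281). Among dendritic cell markers 1 of 6 tested was called higher with age in each diet, which is near those shares of all genes. It was Itgax, an integrin chain that macrophages share, at 1.33 in GLLP and 1.90 in CTR. B cell markers summed to 1.43 to 2.91 CPM in GLLP and 1.23 to 9.63 CPM in CTR at PND540, and to 1.82 to 2.83 CPM in GLLP and 1.33 to 1.99 CPM in CTR at PND21. Their maximum was CTR replicate 1 at PND540, where Ms4a1, which encodes CD20, was at 1.13 CPM; Ms4a1 had at most 0.134 CPM in every other library and 0 counts in several. That library was also the highest for RT1-Db1. Of the 2 B cell genes tested with age, edgeR called 0 in either diet, with 0 at an unadjusted p under 0.05 and 0 by DESeq2. Limma voom called both in GLLP, among 7197 of 13694 genes, and 0 in CTR.

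At PND21, the 13 macrophage markers all had positive log2 fold changes for GLLP against CTR, with a median of 0.43 and 0 called by edgeR, as did the 5 pan-leukocyte genes, with a median of 0.54 and 0 called. Of the macrophage markers 5 had an edgeR unadjusted p under 0.05, DESeq2 called 2 and limma voom 6. Of the pan-leukocyte genes the counts were 3, 1 and 2 in the same order. Over all 14915 genes edgeR gave 19.3% an unadjusted p under 0.05, DESeq2 called 972 and limma voom 3490. Positive values were found in 7381 of all genes. GLLP libraries at PND21 also held more skeletal muscle RNA: 8 of 8 marker genes were called higher by edgeR, beside 1.01% of all genes. Their sum was 971 to 1119 CPM in GLLP and 347 to 436 CPM in CTR. Acta1, a skeletal muscle actin named after its values were seen, made up most of that sum, at 603 ± 71.3 CPM in GLLP (SD, n = 3) and 369 ± 41.6 CPM in CTR (SD, n = 4), and was 1.64-fold higher. The other 7 were 17.5-fold (Mylpf) to 328-fold (Myl1) higher. The part of muscle tissue in the members' PND21 values was not tested. At PND540, 0 of the 14 macrophage markers were called between the diets, with 10 negative and a median of -0.38, and 0 of the 8 T cell markers, all negative, with a median of -0.46, by edgeR, DESeq2 and limma voom alike. At an unadjusted p under 0.05 edgeR had 0 of the macrophage and 1 of the T cell markers, beside 0.833% of all genes. Of all 14767 genes tested at PND540, 7390 were negative.

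**Figure D5:**
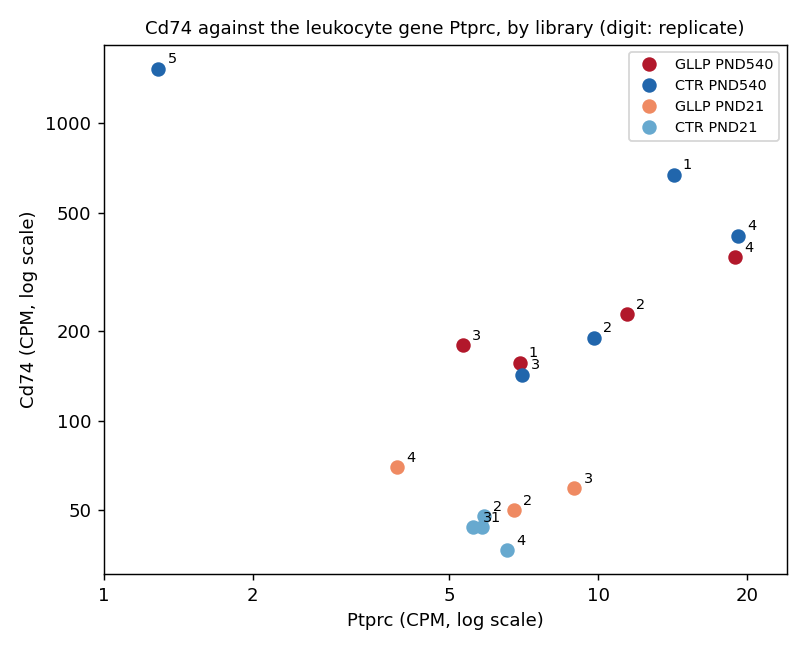
Cd74 against Ptprc, both in CPM on log scales, in each of the 16 libraries, with the replicate number beside each point. CTR replicate 5 at PND540 lies apart, at 1528 CPM of Cd74 and 1.29 CPM of Ptprc, and the other PND540 libraries lie above the PND21 libraries in Cd74.

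Set against Ptprc, Cd74 was also higher at PND540. The ratio of Cd74 to Ptprc counts was 18.8 to 33.7 in GLLP and 19.4 to 1184 in CTR at PND540, and 6.63 to 17.8 in GLLP and 5.60 to 8.15 in CTR at PND21. The maxima of 1184 and 17.8 belonged to CTR replicate 5 at PND540 and GLLP replicate 4 at PND21, where Ptprc was at 1.29 and 3.92 CPM. Ctss to Ptprc was 2.58 to 5.57 in GLLP and 2.83 to 58.8 in CTR at PND540, and 1.12 to 2.02 in GLLP and 0.858 to 1.65 in CTR at PND21. RT1-Da to Ptprc overlapped between the ages in GLLP, at 4.66 to 8.46 at PND540 and 2.27 to 5.37 at PND21. In CTR it was 5.52 to 164 at PND540 and 1.54 to 2.48 at PND21. Ciita to Ptprc overlapped between the ages, at 0.273 to 0.386 in GLLP and 0.248 to 2.27 in CTR at PND540, and 0.261 to 0.528 in GLLP and 0.157 to 0.331 in CTR at PND21.

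Most of the other class II pathway genes were not called between the ages. Of 18 tested between the ages, edgeR called 3 higher and 2 lower in GLLP and 4 higher and 1 lower in CTR (of all genes 19.1% were called higher and 17.1% lower in GLLP, and 17.3% higher and 13.2% lower in CTR), with medians of -0.0033 and 0.22 on the log2 scale in that order. Creb1, whose protein is part of the X box complex, had a log2 fold change of 3.51 (SE 0.26, edgeR adjusted p = 2.19e-05) in GLLP and 2.92 (SE 0.39, edgeR adjusted p = 0.000419) in CTR. Rfx5, the DNA-binding subunit of the RFX complex, fell by 0.58 in GLLP (SE 0.20, edgeR adjusted p = 0.0447) and by 0.84 in CTR (SE 0.15, edgeR adjusted p = 0.00210). The endosomal proteases Ctsb and Lgmn rose with age in both diets, Ctsb by 0.97 in GLLP and 1.38 in CTR and Lgmn by 0.62 in GLLP and 0.92 in CTR, all called by edgeR. Between the diets 0 of these pathway genes were called at either age by edgeR, of 19 tested at PND540 and 18 at PND21. At an unadjusted p under 0.05 edgeR had 1 at PND540 and 3 at PND21, beside 0.833% and 19.3% of all genes. Only limma voom called any, 2 at PND21, where it called 3490 of 14915 genes. RT1-DOa, the alpha chain of DO, had a log2 fold change of -1.21 (SE 0.61) at PND540 and 1.18 (SE 0.33, edgeR adjusted p = 0.120) at PND21.

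Interferon-gamma signalling lies upstream of Ciita, and edgeR called 3 of 14 of its genes higher with age in GLLP, beside 19.1% of all genes, and 4 of 13 in CTR, beside 17.3% of all genes. In both diets 0 were called lower. Nlrc5, the class I counterpart of Ciita, rose by 1.84 (SE 0.39, edgeR adjusted p = 0.00610) in GLLP and 1.81 (SE 0.28, edgeR adjusted p = 0.000929) in CTR. Irf1, a transcription factor that drives Ciita from its inducible promoter, was at 0.35 in GLLP (SE 0.36, edgeR adjusted p = 0.480, not called) and rose by 1.40 in CTR (SE 0.28, edgeR adjusted p = 0.00429). Between the diets 0 were called at either age by edgeR. At an unadjusted p under 0.05 it had 0 at PND540 and 4 of the 13 tested at PND21, beside 0.833% and 19.3% of all genes. DESeq2 called 1 and limma voom 4 of them at PND21, among 972 and 3490 of 14915 genes, and both called 0 at PND540. At PND21 Irf8, a factor of myeloid cells, had a log2 fold change of 0.65 (SE 0.16, edgeR adjusted p = 0.0877).

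Among 11081 other genes with a mean of at least 1 CPM at both ages, the 8 whose log2 CPM followed the mean of the 8 members with counts at both ages most closely were Rgs10, Spi1, Rab17, Tmem176b, Limd2, Sema4g, Kcnn4 and Osbpl7. Likeness was the mean of 2 Pearson correlations, 1 over the 9 libraries of PND540 and 1 over the 7 of PND21. Rgs10, a regulator of G protein signalling, had the highest likeness, 0.927, with an r of 0.916 at PND540 and 0.938 at PND21. Without the 2 libraries farthest from the median, its r was 0.954 at PND540 and 0.964 at PND21. Spi1, the myeloid and B cell transcription factor PU.1, followed at 0.900, but its r of 0.903 at PND21 was 0.407 without the 2 farthest libraries and so rested on them. Osbpl7, the last of the 8, had a likeness of 0.885.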

How the data were processed

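The authors deposited whole-number read counts per gene in 1 table for each age, not normalized. Per the submitters' processing notes, STAR, edgeR 3.34.0 and Rnor_6.0 were involved, with no role stated. Which program counted reads, with which annotation and strand setting, is not given in the sources used here. Totals ran from 28748604 to 39161666 counts per library, which leaves the values of RT1-DMa, RT1-DMb and RT1-DOb on few counts. Of the PND21 names, 25 looked like dates and were not named. Replicates differed by more than sampling noise (chi-square per degree of freedom 30.3 to 829), and none was treated as a duplicate.

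Samples were grouped by diet and age from the labels. Tests were run in R 4.3.3 with edgeR 4.0.16, using filterByExpr, TMM factors, a robust quasi-likelihood fit and a two-sided test, adjusted by Benjamini-Hochberg over all genes tested at a threshold of 0.05. Diet effects were fitted within an age. Age effects and the interaction used the gene names shared by the tables. CPM values used TMM factors from all 16 libraries, and log2 CPM used a prior count of 2. The alternatives were DESeq2 1.42.0, limma voom 3.58.1 with sample weights, scaling by library size alone or by RLE, no filter, a filter at 1 CPM, a non-robust fit, a joint fit, a replicate block, and leaving out each library. The scripts were tested on simulated data.

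The members, the gene lists and the tests were chosen with earlier results of these data known. Of each list other than the members, the 4 tested genes with the smallest p per comparison could be named, and 8 genes by likeness. Other genes are said to be picked after their values were seen, apart from the marker Ms4a1 and Ptprc. Promoter sequences came from RefSeq tables of GRCr8, searched on both strands. Figures were drawn with matplotlib 3.10.9.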

Additional observations from a re-analysis of the deposited data

Results flagged for a closer look

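Of 29 sets of 4 or 5 values, each of 1 member in 1 group, 2 held a library far from the rest of its group. Chance alone marks about 1 in 20, a rate that does not hold for sets with most values at 0 counts. The 3 GLLP libraries at PND21 were too few to be checked this way, so RT1-Bb at 129 CPM in replicate 4 could not be marked. RT1-DOb was at 1.32 CPM in GLLP replicate 4 at PND540, and the nearest of the other 3 GLLP libraries was at 0.517 CPM. RT1-DMb was at 0.0332 CPM in CTR replicate 4 at PND21, which is 1 count, with 0 counts in the other 3 CTR libraries of that age. A single count beside 0 counts is always marked by the rule.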

How the results depend on the processing

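Between the diets at PND540, 0 members were called under every alternative run, and the interaction gave 0 as well. Over all genes these runs called 0 at PND540, except for 2 of 14767 by DESeq2. For the interaction they called from 7 of 14380 genes, without GLLP replicate 2 at PND21, to 46 of 14178, by DESeq2. At PND21, where 0 members were called, library size alone called 4, DESeq2 4 and limma voom 5, and leaving out 1 library each time gave 0 to 4, the 4 being without GLLP replicate 2. Library size alone moved the median log2 fold change of all genes there to 0.14. Over all genes at PND21 edgeR called 166, library size alone 650, DESeq2 972, limma voom 3490, the joint fit 40 and the replicate block 27, and 62 to 1509 were called with 1 library left out. RT1-DMa and RT1-DMb had to differ between the ages and are left out of the counts that follow. Between the ages in CTR, where 7 of the 8 members with counts at both ages were called, 5 to 7 were called. Over all genes limma voom called 7460 there and the fit without CTR replicate 5 at PND540 6574, in place of 4117. In GLLP, where 3 of these 8 were called, 3 were called under every alternative run. Over all genes 3434 to 7197 were called there, in place of 4952.

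Deviations of same-numbered libraries correlated at -0.249 to 0.361. Differently numbered libraries were not compared in this way, so these values cannot tell whether the replicate numbers pair the samples. With the replicate block 0 members were called between the diets at either age and 0 for the interaction. Over all genes the block called 0 at PND540, 27 at PND21 and 11 for the interaction. Of the 8 members with counts at both ages, RT1-Db1 lost its call between the ages in CTR (edgeR adjusted p = 0.0533). In GLLP 3 of these 8 were called between the ages, among 3814 of 13694 genes. The median over the 8 members with counts at both ages was then -0.37 between the diets at PND540, against -0.89 without the block, and -1.12 for the interaction, against -1.59.

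Some uncalled log2 fold changes turned sign, and the cause was not tested. Limma voom gave Ctss 0.0659 between the diets at PND540, RT1-Bb 0.67, RT1-Ba -0.0707 and RT1-DOb -0.11 between the ages in GLLP, and RT1-DMa 0.0853 for the interaction. The replicate block gave RT1-Bb 0.67 and RT1-Db1 0.0567 between the ages in GLLP. With 1 library left out each time, RT1-DMb ran from -0.62 to 0.52 between the diets at PND540, and at PND21 RT1-DOb ran from -0.16 to 0.22 and Ctss from -0.0122 to 0.23. Between the ages in GLLP these ranges were -0.43 to 1.35 for RT1-Bb, -0.30 to 0.16 for RT1-Db1, -0.0112 to 0.54 for RT1-Ba and -0.26 to 0.50 for RT1-DOb.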
